A study of Mus musculus with 6 samples.

Results

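The genes described here make up the glycolytic pathway and the cellular response to low oxygen: glucose transporters, glycolytic enzymes, the proteins that decide the fate of pyruvate and lactate, the hypoxia-inducible factors (HIFs) with their oxygen sensors, and genes that HIFs are known to induce. They were taken by gene symbol from a list of 38 names, of which 37 had a row among the 14647 genes of the deposited expression table. All 37 had a mean of at least 0.5 RPKM (reads scaled to gene length and library size) over the libraries and were among the 13547 genes tested. The remaining name, *Eno2*, was not analysed here. RNA came from pharyngeal arches dissected from mouse embryos at E9.5 on a C57Bl/6J background. *Pax9*-null embryos (*Pax9*-/-, 3 libraries) lacked both functional copies of *Pax9*, a transcription factor of the pharyngeal endoderm, from every cell, and were compared with somite-matched wild-type embryos (3 libraries). Each library came from an embryo of its own, so that *P* values measure the spread between these few embryos. The sample labels describe another preparation (sorted cells and a single-cell type of library), and the study's own account of whole dissected tissue is followed here.

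Glycolysis splits glucose into pyruvate, which mitochondria oxidise when oxygen is available and which lactate dehydrogenase otherwise turns into lactate for export. In well-oxygenated cells the prolyl hydroxylases mark the HIF alpha subunits for destruction through the von Hippel-Lindau protein. In low oxygen the alpha subunits persist, pair with Arnt and switch on genes whose regulatory regions carry a short core, often ACGTG. Early organogenesis-stage embryos are known to rely heavily on glycolysis, and HIF activity is required for normal development of the heart and pharyngeal arches.

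*Pax9* (ENSMUSG00000001497), the check of the genotype labels, stood at 0.743, 0.644 and 0.666 RPKM in *Pax9*-null replicates 1, 2 and 3 and at 1.55, 1.64 and 1.94 RPKM in wild-type replicates 1, 2 and 3. A log2 fold change of −1.32 (SE, the standard error, 0.19; limma adjusted *P*=0.0155) left 40.1% of the wild-type level over the whole gene. Markers of the tissues that make up the arches were present in every library, with summed levels of 90.0 to 105 RPKM for 10 neural crest genes, 142 to 229 RPKM for 9 endoderm genes and 26.1 to 34.6 RPKM for 6 mesoderm genes. *Nkx2-1*, the other endoderm marker on the list, was not analysed here.

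The libraries differed in markers of neighbouring tissues. The 12 cardiomyocyte markers, of which *Myl7* was the most abundant, summed to 1763, 1458 and 1350 RPKM in *Pax9*-null replicates 1 to 3 and to 1459 and 1587 RPKM in wild-type replicates 1 and 2, but only to 79.7 RPKM in wild-type replicate 3, where *Nppa* had 0 reads. None of the 12 was called by limma, and 0 had an unadjusted *P* under 0.05. The 10 primitive erythroid markers, led by *Hbb-y*, summed to 4912, 2646 and 4473 RPKM in the *Pax9*-null and to 2408, 2506 and 2462 RPKM in the wild-type libraries, so that *Pax9*-null replicates 1 and 3 stood above the rest, and no erythroid marker was at 0. Of the 10, 2 were called higher in *Pax9*-null embryos (beside 14.7% of all tested genes), among them *Hbb-bh1*, and the median log2 fold change of the 10 was 0.55. Their median length was 1689 bp. Removal of the trend with gene length described below gave a median of 0.29 and 1 call, beside 15.8% of all tested genes called higher. With the GC trend removed too the median was 0.42 with 0 calls, in a fit that called 2.03% of all tested genes higher. The 10 neural markers, led by *Tubb3*, summed to 187 RPKM in wild-type replicate 3 and to between 75.6 and 111 RPKM in the other libraries. Of these 10, *Elavl3* was called lower (10%, beside 12% of all tested genes). The 9 endothelial markers, led by *Tek*, summed to 113 RPKM in wild-type replicate 1 and to between 60.7 and 76.8 RPKM elsewhere. Of these 9, *Cdh5* and *Tie1* were called lower (22.2%, beside 12% of all tested genes), with a median of −0.46. Without the length trend 3 were called lower (median −0.34), beside 11.5% of all tested genes. Without both trends 0 were, with a median of −0.26, when 0.679% of all tested genes were called lower. In such bulk tissue fewer cells of a type and less RNA per cell cannot be told apart. The part of these cells in the results below was not tested.

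**Figure D1:**
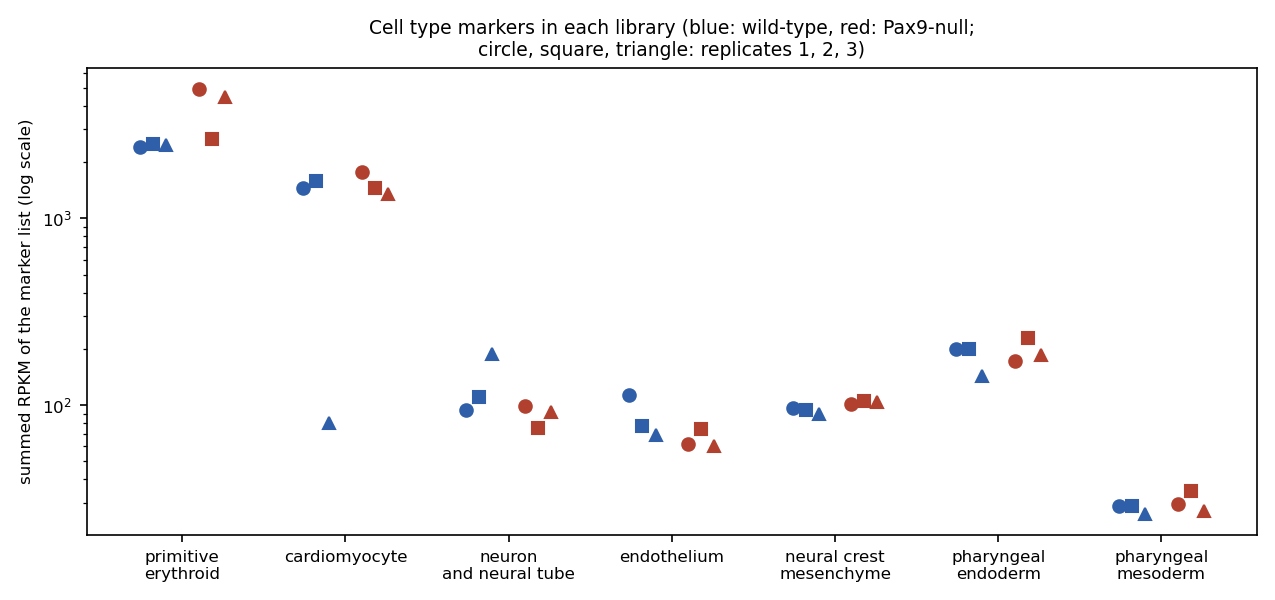
Summed RPKM of each fixed marker list (vertical axis, log scale) in every library, blue for wild-type and red for *Pax9*-null, with a symbol for each replicate. Wild-type replicate 3 lies at 79.7 RPKM for the cardiomyocyte markers, and *Pax9*-null replicates 1 and 3 lie above the other libraries for the erythroid markers.

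Of the 37 genes, 7 were called higher in *Pax9*-null embryos (limma, adjusted *P* up to 0.1), namely *Bnip3*, *Pdk1*, *Fam162a*, *Bnip3l*, *Slc16a1*, *Pgk1* and *Hilpda*, and 3 were called lower, *Pfkm*, *Pfkl* and *Ldhb*. These shares of 18.9% and 8.11% stood beside 14.7% and 12% of all tested genes called higher and lower. In 10 members all *Pax9*-null libraries lay above all wild-type libraries, and in 4 they all lay below, against 21.8% and 20.1% of all tested genes. The median log2 fold change of the members was 0.09, and that of all tested genes was 0.00. The members' counts as a whole were thus near the background of this comparison. Of the 8 members listed for their induction by HIFs 4 were called higher (50%, beside 14.7% of all tested genes), with a median of 0.39. Their median length was 1975 bp. Without the length trend described below their calls fell to 2 (median 0.17), beside 15.8% of all tested genes called higher. Without the GC trend as well 0 were called, with a median of 0.21, when 2.03% of all tested genes were called higher. Among the 18 glycolytic enzymes, including the lactate dehydrogenases, 1 was called higher and 3 lower, with a median of −0.08.

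The counts varied with the library left out and with the scaling. *Bnip3* was the only member called when either *Pax9*-null replicate 1 or replicate 3 was left out, when 13 and 10 members had an unadjusted *P* under 0.05. In these fits only 2.22% and 1.29% of all tested genes were called, so that 1 of 37 was near the background. Without *Pax9*-null replicate 2 there were 4 higher and 3 lower, beside 12.4% and 10.2% of all tested genes, and *Hk2* (lower, −0.58, adjusted *P*=0.0812) had not been called before. Without wild-type replicate 1 there were 4 and 1, beside 8.13% and 5.15%. Without wild-type replicate 2 there were 9 and 2, beside 14.8% and 11.6%, with *Ldha* and *Slc2a3* newly called higher. Leaving out wild-type replicate 3, the library low in cardiomyocyte markers, gave 5 higher and 3 lower, beside 9.16% and 6.64%, of which *Vhl* (higher), *Gpi1* and *Hk1* (both lower) had not been called with all libraries. Quantile normalization changed the split to 4 higher and 9 lower, beside 10.6% and 12.9% of all tested genes, and added *Eno1*, *Gapdh*, *Gpi1*, *Pgam1*, *Pkm* and *Tpi1* to those called lower. With 3 libraries against 3 the smallest *P* of a two-sided exact permutation test on 1 gene is 0.1, which all 14 members without overlap had.

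**Figure D2:**
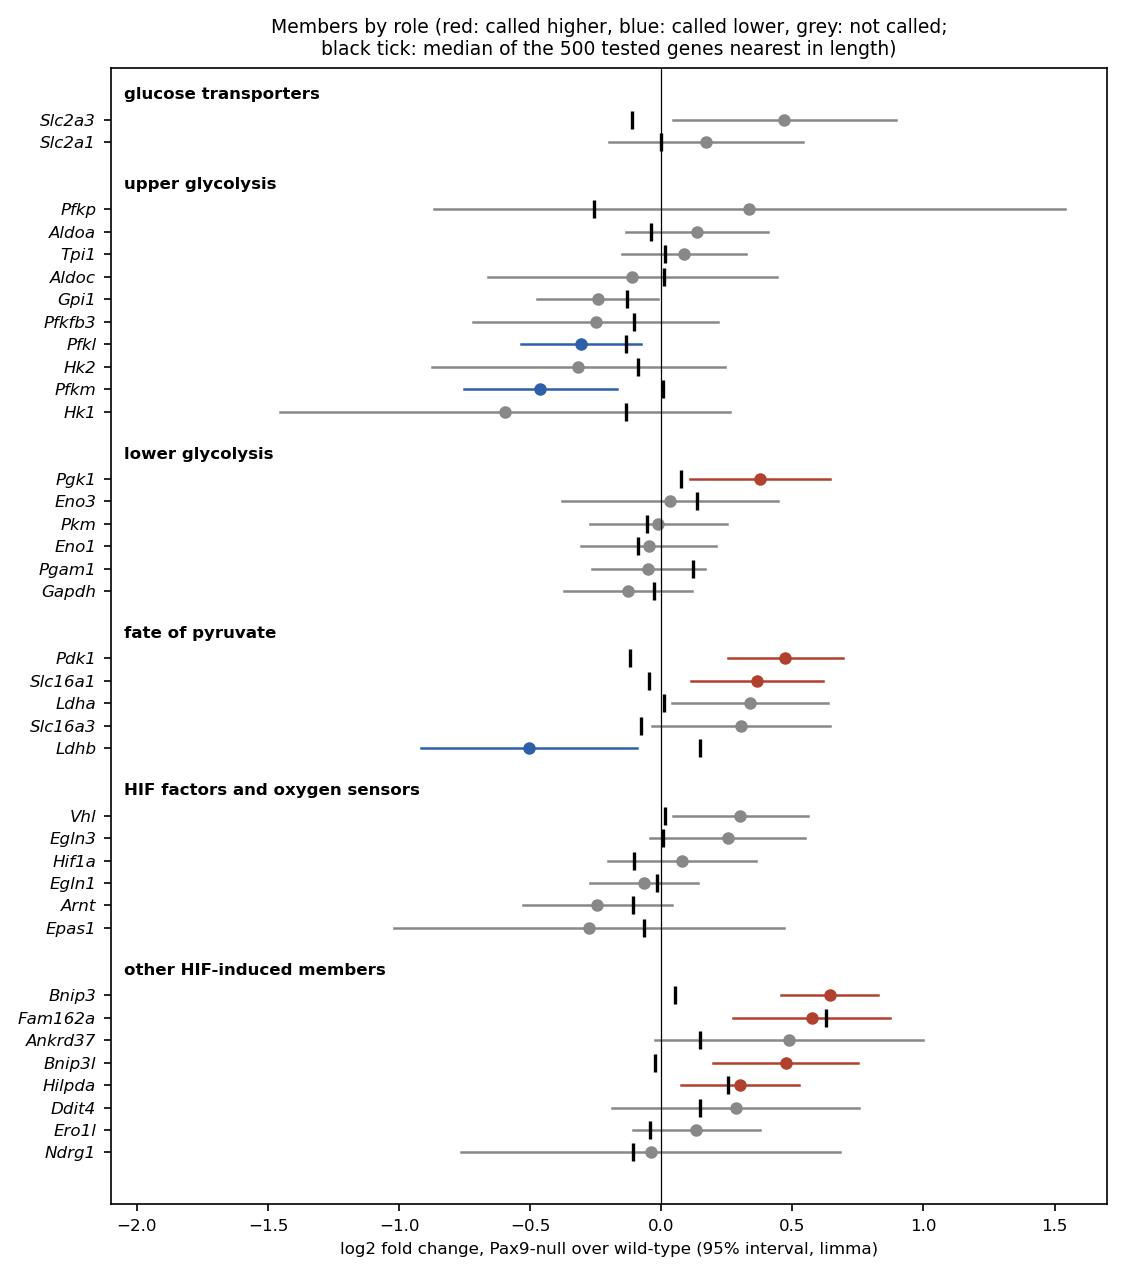
Log2 fold change of each of the 37 genes, *Pax9*-null over wild-type, with its 95% interval from limma (horizontal axis), grouped by role. Red points were called higher, blue points lower and grey points neither, and the black tick gives the median of the 500 tested genes nearest in length. The called genes run from −0.50 for *Ldhb* to 0.64 for *Bnip3*, and the tick lies beside the point for *Fam162a* and *Hilpda*.

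The promoters of the members were searched for ACGTG, a common core of HIF binding, and for no other form of the core. Of the 33 members with an entry among the RefSeq promoters of GRCm38.p6, 20 (60.6%) held ACGTG on either strand in the 250 bases before a transcription start, against 25.4% of 9588 tested genes and 18.5% of 27025 genes. They were 5 of 6 members called higher, 1 of 3 called lower and 14 of 24 not called, so that most members that did not pass the test held the letters too. The list was partly made of genes known as HIF targets, so its higher share is not a result of this comparison. A gene counted if any of its starts had a match, and genes were not matched for number of starts or GC content. ACGTG read on both strands of CACGTG counts as 2 overlapping matches. Those of the 5 called genes whose matches lie outside annotated exons are shown, 4 called higher and *Pfkm*, called lower, with the ACGTG letters and their reverse complement CACGT in capitals and the strand that of the gene. A match is a description and not a measured binding site.
*Bnip3*, chr7:138909589-138909634, minus strand: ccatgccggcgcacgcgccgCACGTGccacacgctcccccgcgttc
*Fam162a*, chr16:36071618-36071662, minus strand: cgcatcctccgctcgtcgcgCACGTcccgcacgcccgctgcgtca
*Pgk1*, chrX:106186930-106186993, plus strand: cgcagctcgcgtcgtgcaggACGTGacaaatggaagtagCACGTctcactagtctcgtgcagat
*Slc16a1*, chr3:104638444-104638489, plus strand: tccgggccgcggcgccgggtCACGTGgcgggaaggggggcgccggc
*Pfkm*, chr15:98092433-98092478, plus strand: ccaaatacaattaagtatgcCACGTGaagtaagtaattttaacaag
*Pfkm*, second start, chr15:98108221-98108251, plus strand: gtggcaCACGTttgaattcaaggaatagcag
The matches began 108 bases before the start of *Bnip3*, 81 before that of *Fam162a*, 150 and 131 before that of *Pgk1* and 200 before that of *Slc16a1*, and 136 and 244 before 2 of the 4 starts of *Pfkm*. *Pdk1* held no match in the windows searched, the match of *Hilpda* lay in an exon of the gene, and *Bnip3l* was not among the promoters analysed.

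*Bnip3* (ENSMUSG00000078566, chromosome 7 from 138890836 to 138909519 of GRCm38) encodes a receptor on mitochondria that marks them for removal by autophagy and is a classical HIF target. It measured 40.01, 41.4 and 43.5 RPKM in *Pax9*-null replicates 1 to 3 and 25.2, 27.8 and 27.1 RPKM in wild-type replicates 1 to 3. The groups were far apart, and the spread within each was small. The rise of 0.64 (SE 0.08, limma adjusted *P*=0.0104), or 156% of the wild-type level, was the largest among the members before any trend was removed. *Bnip3* was called whichever of the 6 libraries was left out. Of the 500 tested genes nearest in length, which had a median of 0.05, 6.8% had a higher log2 fold change. With the length trend removed *Bnip3* had 0.593 (limma adjusted *P*=0.0167), and *Pdk1* (0.609), *Pfkp* (0.601) and *Slc2a3* (0.598) had higher values. Correction of every library for its dependence on length and GC content lowered the log2 fold change of *Bnip3* to 0.32 and ended the call (adjusted *P*=0.107).

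Its relative *Bnip3l* (ENSMUSG00000022051, chromosome 14 from 66985239 to 67008877) encodes a second mitophagy receptor, best known for clearing mitochondria from maturing red cells. It had 97.2, 88.0 and 99.8 RPKM in *Pax9*-null and 57.8, 75.8 and 72.7 RPKM in wild-type replicates 1 to 3. All *Pax9*-null values were higher, and the lowest of them was in replicate 2, the *Pax9*-null library with the lowest sum of erythroid markers. The log2 fold change was 0.47 (SE 0.12, limma adjusted *P*=0.0482), beside a median of −0.02 for genes of like length. It was 0.24 (adjusted *P*=0.21) once both trends were removed. Of its stretches of 50 bases, 20.8% also occur in the pseudogene *Bnip3l-ps*, which had 9 to 47 reads per library and was called higher itself, with a log2 fold change of 1.51 (limma adjusted *P*=0.0336). How reads were shared between the pair was not tested.

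*Fam162a* (ENSMUSG00000003955, chromosome 16 from 36043761 to 36071594), which encodes a mitochondrial protein induced in hypoxia, was the most abundant of the 8 members listed for their induction by HIFs. It reached 202, 163 and 185 RPKM in *Pax9*-null and 113, 144 and 113 RPKM in wild-type replicates 1 to 3. The groups did not overlap, and the log2 fold change was 0.57 (SE 0.13, limma adjusted *P*=0.0425). The gene is short, however, at 635 bp as worked out from the deposited values and 850 bp in GENCODE M21. The 500 genes nearest in length had a median of 0.63 by the first length and 0.39 by the second. Removal of each library's trend with length ended the call with either set of lengths, leaving −0.02 (limma adjusted *P*=0.902) with the first and 0.12 (0.432) with M21 lengths. Its end overlaps that of *Wdr5b* on the opposite strand, with a log2 fold change of 0.08 for that gene (limma adjusted *P*=0.748).

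*Hilpda* (ENSMUSG00000043421, chromosome 6 from 29272488 to 29275446), whose product protects lipid droplets from breakdown, gave 18.3, 17.7 and 18.4 RPKM in *Pax9*-null and 13.1, 15.5 and 15.7 RPKM in wild-type replicates 1 to 3. It too was higher in every *Pax9*-null library, by 0.30 on the log2 scale (SE 0.10, limma adjusted *P*=0.0767). Genes of like length had a median of 0.25, and the value fell to 0.02 without the length trend (limma adjusted *P*=0.88), or to −0.01 with M21 lengths. Among the fits that left out 1 library, *Hilpda* was called only without wild-type replicate 2 (0.34, limma adjusted *P*=0.0901). The other HIF-induced members were not called. *Ankrd37* had a log2 fold change of 0.49 (limma adjusted *P*=0.159), the mTOR inhibitor *Ddit4* 0.28 (0.345), the endoplasmic reticulum oxidase *Ero1l* 0.13 (0.386) and *Ndrg1* −0.04 (0.938). With the length trend removed, *Bnip3* and *Bnip3l* were the 2 of these 8 genes still called higher, beside 15.8% of all tested genes.

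**Figure D3:**
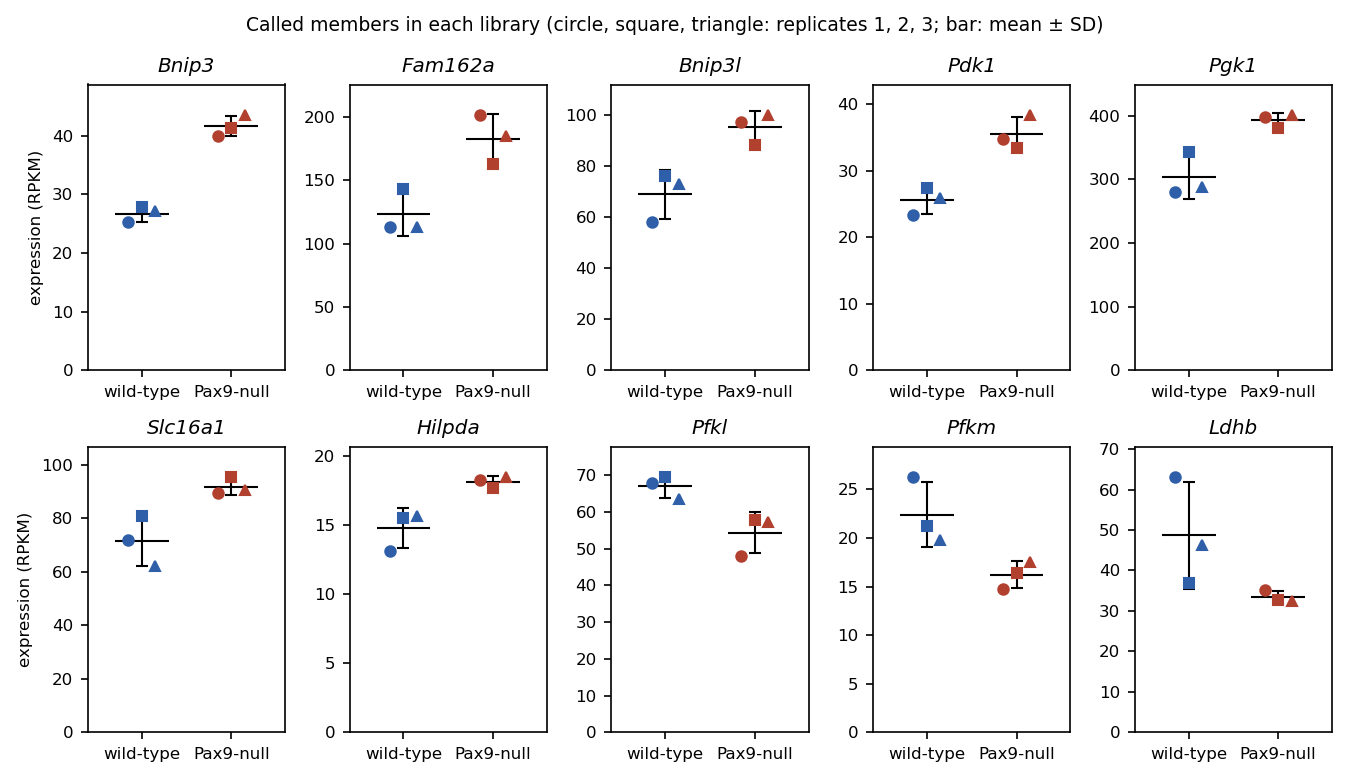
Expression in RPKM (vertical axes, from 0) of the 10 called genes in each library, blue for wild-type and red for *Pax9*-null, with the mean and SD of each group (*n*=3). In every panel the groups do not overlap. The wild-type libraries of *Ldhb* run from 36.8 to 63.0 RPKM, and those of *Bnip3* from 25.2 to 27.8 RPKM.

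The genes that decide what happens to pyruvate and lactate held 2 of the rises and 1 fall among 5, beside 14.7% and 12% of all tested genes. Without the length trend 4 of the 5 were called higher and 1 lower, beside 15.8% and 11.5% of all tested genes. With both trends removed 2 were called higher and 0 lower, beside 2.03% and 0.679%. *Pdk1* (ENSMUSG00000006494, chromosome 2 from 71873224 to 71903858) encodes a kinase that shuts off pyruvate dehydrogenase and so keeps pyruvate out of the mitochondrial cycle. Its level was 34.8, 33.5 and 38.4 RPKM in *Pax9*-null and 23.4, 27.5 and 26.0 RPKM in wild-type replicates 1 to 3. Every *Pax9*-null library exceeded every wild-type library, with a log2 fold change of 0.47 (SE 0.10, limma adjusted *P*=0.0352). At 7779 bp it is a long gene, and long genes tended to be lower: the 500 nearest in length had a median of −0.12, and 2.8% of them rose by more. It was the only called member that kept its call once both trends were removed (0.56, limma adjusted *P*=0.0926).

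*Slc16a1* (ENSMUSG00000032902, chromosome 3 from 104638668 to 104658462) encodes the monocarboxylate transporter that carries lactate and pyruvate across the cell membrane. It measured 89.3, 95.2 and 90.5 RPKM in *Pax9*-null and 72.0, 80.8 and 62.1 RPKM in wild-type replicates 1 to 3. The *Pax9*-null libraries lay close together above a more scattered wild-type group, with a log2 fold change of 0.36 (SE 0.11, limma adjusted *P*=0.0651). Its call ended under quantile normalization (0.19, adjusted *P*=0.217), with both trends removed (0.19, 0.324) and in 5 of the 6 fits without 1 library. The lactate exporter *Slc16a3* had a log2 fold change of 0.30 (SE 0.15, limma adjusted *P*=0.178), with overlapping groups. It passed the threshold with the length trend removed (0.40, adjusted *P*=0.0981) and with the GC trend removed too (0.71, adjusted *P*=0.0679). By M21 lengths it missed the threshold without the length trend (0.39, limma adjusted *P*=0.102) and passed it without both trends (0.70, 0.0728).

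*Ldha* (ENSMUSG00000063229, chromosome 7 from 46841475 to 46855627), which encodes the lactate dehydrogenase subunit that favours lactate formation, was the most abundant of all members. It stood at 470, 467 and 491 RPKM in *Pax9*-null and at 334, 436 and 366 RPKM in wild-type replicates 1 to 3. The groups did not overlap, but the log2 fold change of 0.34 (SE 0.13, limma adjusted *P*=0.107) missed the threshold. Under quantile normalization it turned to −0.05 (adjusted *P*=0.698). With the length trend removed *Ldha* was called (0.33, limma adjusted *P*=0.0643), and with both trends removed it was not (0.39, 0.126). The other subunit, *Ldhb* (ENSMUSG00000030246, chromosome 6 from 142490249 to 142507957), went the other way, with 35.3, 32.7 and 32.6 RPKM in *Pax9*-null and 63.0, 36.8 and 46.2 RPKM in wild-type replicates 1 to 3. The *Pax9*-null libraries were nearly alike, and the wild-type libraries differed widely. Its log2 fold change was −0.50 (SE 0.18, limma adjusted *P*=0.0926), and 3.8% of the genes of like length, whose median was 0.15, fell further. Among the fits that left out 1 library, *Ldhb* was called only without wild-type replicate 2 (−0.69, limma adjusted *P*=0.0373). Without wild-type replicate 1, the highest library, its log2 fold change was −0.30 (0.14). With both trends removed it was −0.58 (0.178), no nearer to 0 than before, although the call ended.

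Comparison of relatives within each library removes its sequencing depth, and was possible for 8 of 9 pairs. The log2 ratio of *Ldha* to *Ldhb* was 3.74, 3.83 and 3.91 in *Pax9*-null and 2.41, 3.57 and 2.98 in wild-type replicates 1 to 3. *Ldha* thus made up 93.0 to 93.8% of the summed RPKM of the pair in *Pax9*-null and 84.1 to 92.2% in wild-type embryos. The difference of 0.84 had a *P* of 0.1, the smallest possible in a two-sided exact permutation test (0.4 adjusted over the 8 pairs). It was 0.55 without wild-type replicate 1. The ratio of *Slc2a1* to *Slc2a3* was lower in every *Pax9*-null library, by −0.30 with the same *P* values, and the neuronal-type glucose transporter *Slc2a3* gained on *Slc2a1*. The 6 other ratios overlapped between genotypes, with differences from −0.64 for *Pfkl* to *Pfkp* to 0.36 for *Hif1a* to *Epas1* and exact permutation *P* values of 0.3 to 0.8. Both of these extremes rested on 1 library. The first became 0.01 without wild-type replicate 3, and the second 0.07 without wild-type replicate 1 and −0.06 with both trends removed.

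**Figure D4:**
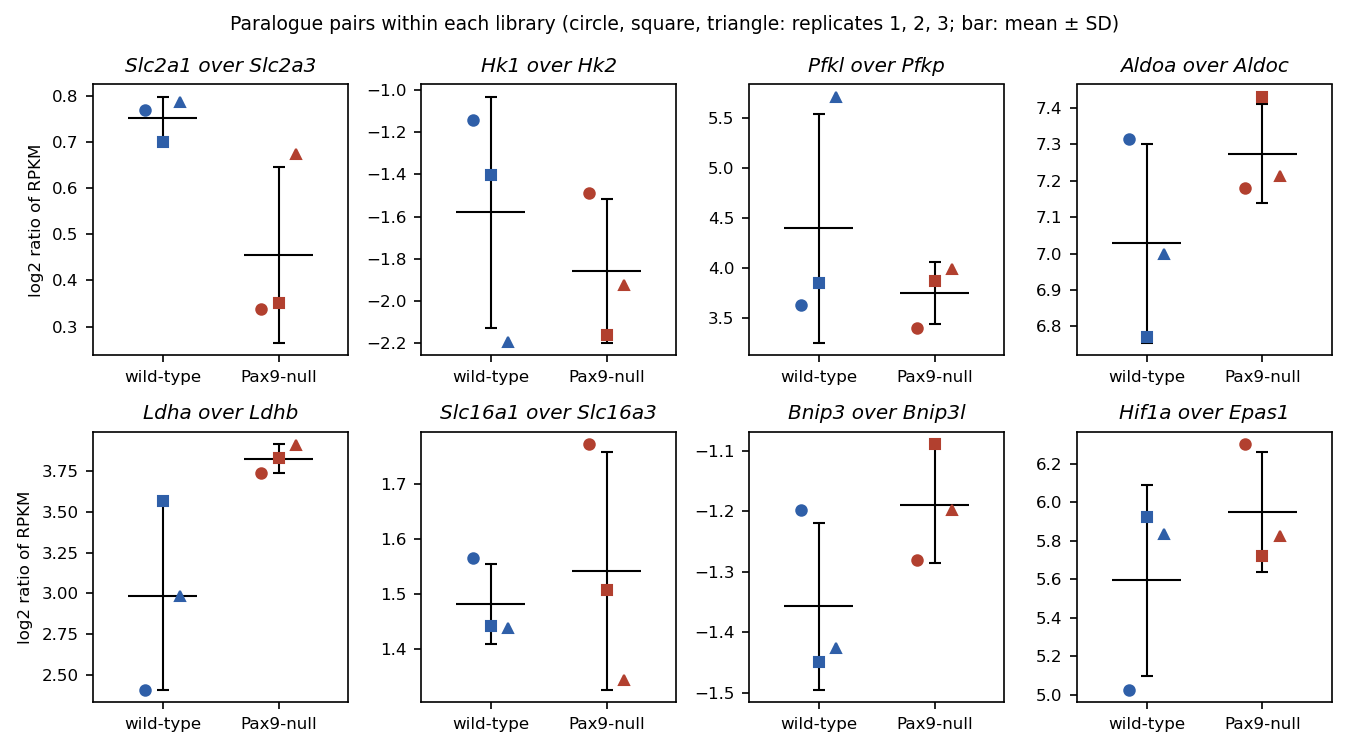
Log2 ratio of the RPKM of paired relatives (vertical axes, each with its own range that does not start at 0) in each library, blue for wild-type and red for *Pax9*-null, with the mean and SD of each group (*n*=3). The *Ldha* to *Ldhb* ratios lie at 3.74 to 3.91 in *Pax9*-null libraries, above all wild-type ratios, and the *Pfkl* to *Pfkp* ratio of wild-type replicate 3 stands far above the rest.

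Neither glucose transporter was called by limma, and 1 of them, *Slc2a3*, had an unadjusted *P* under 0.05. *Slc2a1* (ENSMUSG00000028645, chromosome 4 from 119108711 to 119137983), the widespread basal transporter, had 80.3, 110 and 96.3 RPKM in *Pax9*-null and 85.1, 99.8 and 70.3 RPKM in wild-type replicates 1 to 3. The groups overlapped throughout (0.17, SE 0.16, limma adjusted *P*=0.467). *Slc2a3* had 63.5, 86.5 and 60.3 RPKM against 49.9, 61.5 and 40.8 RPKM, overlapping through 1 library of each genotype (0.47, SE 0.18, limma adjusted *P*=0.115). It was called with the length trend removed (0.60, adjusted *P*=0.0602).

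The steps from glucose to the triose phosphates gave 2 falls among 10 genes, beside 12% of all tested genes called lower, and a median of −0.25. Their median length was 6210.5 bp. Without the length trend the median became −0.12 with 1 gene called lower, beside 11.5% of all tested genes. Without the GC trend as well the median was 0.02 with 0 called, when 2.03% of all tested genes were called higher and 0.679% lower. Both falls were in phosphofructokinase, which catalyses the committed step of glycolysis. *Pfkm* (ENSMUSG00000033065, chromosome 15 from 98092589 to 98132451), the muscle-type subunit, had 14.7, 16.4 and 17.5 RPKM in *Pax9*-null and 26.2, 21.2 and 19.8 RPKM in wild-type replicates 1 to 3. The groups did not overlap, and wild-type replicate 3, which nearly lacks cardiac markers, was the lowest of its group. The log2 fold change was −0.46 (SE 0.13, limma adjusted *P*=0.0552), and −0.54 without that library. It was −0.34 without wild-type replicate 1, the highest, and the call ended without *Pax9*-null replicate 1 (−0.39, adjusted *P*=0.198) or replicate 3 (−0.52, 0.128). *Pfkl* (ENSMUSG00000020277, chromosome 10 from 77986947 to 78010083), the liver-type subunit and the most abundant of the family, had 47.8, 57.9 and 57.1 RPKM in *Pax9*-null and 67.8, 69.4 and 63.5 RPKM in wild-type replicates 1 to 3. It was lower in all *Pax9*-null libraries (−0.31, SE 0.10, limma adjusted *P*=0.0762). Among the fits that left out 1 library, *Pfkl* was called only without *Pax9*-null replicate 2 (−0.355, limma adjusted *P*=0.0875). Genes of its length had a median of −0.14, or −0.10 by its M21 length. Without the length trend it was −0.15 (adjusted *P*=0.31), and the sign turned once the GC trend was removed too (0.22, 0.212).

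The platelet-type subunit *Pfkp* had 4.52, 3.96 and 3.60 RPKM in *Pax9*-null and 5.49, 4.80 and 1.21 RPKM in wild-type replicates 1 to 3, so that wild-type replicate 3 stood alone. The log2 fold change was 0.34 (limma adjusted *P*=0.674) with that library and −0.36 (0.187) without it. *Hk1*, a hexokinase that traps glucose in the cell, also had its lowest wild-type value in replicate 3, with 5.08, 5.79 and 4.10 RPKM in *Pax9*-null and 12.7, 8.05 and 4.08 RPKM in wild-type replicates 1 to 3. Its value was −0.60 (limma adjusted *P*=0.284) over all libraries and −1.03 (0.0535) without wild-type replicate 3, but −0.21 (0.644) without wild-type replicate 1, the highest library. *Tpi1* (ENSMUSG00000023456, chromosome 6 from 124810586 to 124814296), triose phosphate isomerase and the most abundant gene of these steps, had 224, 217 and 241 RPKM in *Pax9*-null and 210, 234 and 199 RPKM in wild-type replicates 1 to 3. Its groups overlapped (0.09, SE 0.10, limma adjusted *P*=0.575). The remaining genes of these steps were not called. They were the hexokinase *Hk2* (−0.32, and −0.15 without *Pax9*-null replicate 1), the isomerase *Gpi1* (−0.24), *Pfkfb3*, which makes the activator of phosphofructokinase (−0.25), and the aldolases *Aldoa* (0.14) and *Aldoc* (−0.11), with adjusted *P* values from 0.127 to 0.771 by limma.

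In the later, energy-yielding steps 1 of 6 genes was called, higher, beside 14.7% of all tested genes. *Pgk1* (ENSMUSG00000062070, chromosome X from 106187100 to 106203699), the enzyme of the first ATP-forming reaction and a well-known HIF target, had 398.5, 380 and 401 RPKM in *Pax9*-null and 280, 344 and 288 RPKM in wild-type replicates 1 to 3. The *Pax9*-null libraries were tightly grouped above the others (0.38, SE 0.11, limma adjusted *P*=0.069), and genes of like length had a median of 0.07. Under quantile normalization the value was 0.02 (adjusted *P*=0.878), and the call ended in 5 of the 6 fits without 1 library. Of its stretches of 50 bases 53.9% also occur in other genes, mostly in the processed copy *Pgk1-rs7*, so that its count is uncertain. *Pkm*, pyruvate kinase, had 295, 339 and 324 RPKM in *Pax9*-null and 298, 353 and 316 RPKM in wild-type replicates 1 to 3 (−0.01, 95% interval −0.27 to 0.25, limma adjusted *P*=0.95). Its value depended on the scaling, at −0.40 (adjusted *P*=0.0584) under quantile normalization and 0.40 (0.108) with both trends removed. Intervals of *Gapdh* (−0.13, −0.37 to 0.12), *Eno1* (−0.05, −0.31 to 0.21) and *Pgam1* (−0.05, −0.27 to 0.17) also spanned 0. These enzymes were abundant, with means of 109 to 321 RPKM over the libraries. The muscle enolase *Eno3* had 58.3, 55.1 and 58.4 RPKM in *Pax9*-null and 64.1, 66.5 and 40.9 RPKM in wild-type replicates 1 to 3, lowest in wild-type replicate 3, and its value moved from 0.04 to −0.19 without that library.

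None of the 6 HIF factors and oxygen sensors was called by limma, and 1, *Vhl*, had an unadjusted *P* under 0.05. *Hif1a* (ENSMUSG00000021109, chromosome 12 from 73901375 to 73947530), whose protein is controlled mainly after translation, had 72.6, 72.1 and 56.9 RPKM in *Pax9*-null and 67.9, 65.3 and 56.9 RPKM in wild-type replicates 1 to 3. The groups overlapped fully, with a log2 fold change of 0.08 (95% interval −0.20 to 0.36, limma adjusted *P*=0.672). *Epas1*, the alpha subunit more typical of endothelium, was sparse at 0.919 to 2.08 RPKM. Its highest value fell in wild-type replicate 1, the library with the highest endothelial markers (−0.28, limma adjusted *P*=0.567), and without that library the value turned to 0.06 (0.896). *Vhl*, which recognises hydroxylated HIF alpha, had 32.6, 30.4 and 34.8 RPKM in *Pax9*-null and 23.0, 27.1 and 29.7 RPKM in wild-type replicates 1 to 3. Those groups did not overlap, but the rise of 0.30 missed the threshold (limma adjusted *P*=0.102). The hydroxylase *Egln3*, itself a HIF target, was also higher in every *Pax9*-null library (0.25, adjusted *P*=0.195), the partner subunit *Arnt* lower in every one (−0.25, adjusted *P*=0.193), and the main hydroxylase *Egln1* overlapped (−0.07, adjusted *P*=0.622).

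Gene length mattered for reading these values, since fold changes in this comparison fell with length across all genes. In the decile of tested genes up to 1288 bp, which holds *Fam162a* and *Hilpda*, the median log2 fold change was 0.54. There 46.6% were called higher and 1.55% lower. In the decile with 6987 to 9268 bp, which holds *Pdk1*, *Slc2a3*, *Pfkl*, *Hk1*, *Arnt* and *Pfkfb3*, the median was −0.12. Here 6.73% were called higher and 19.7% lower. *Bnip3* and *Pgk1* lie in a decile with a median of 0.05, *Bnip3l* and *Ldha* in one with a median of −0.02. With each library's length trend removed 9 members (of 37) were called higher and 2 lower, beside 15.8% and 11.5% of all tested genes in the same fit. *Fam162a*, *Hilpda* and *Pfkl* lost their calls, and *Ldha*, *Slc16a3*, *Slc2a3* and *Vhl* gained one. With the GC trend removed as well, only *Pdk1* and *Slc16a3* were called, both higher, when 2.03% of all genes were called higher and 0.679% lower. The same 2 genes were called with M21 lengths. With those lengths and the length trend alone removed, 8 members were called higher and 2 lower, beside 15.9% and 11.7% of all tested genes. *Slc16a3* was not among them.

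**Figure D5:**
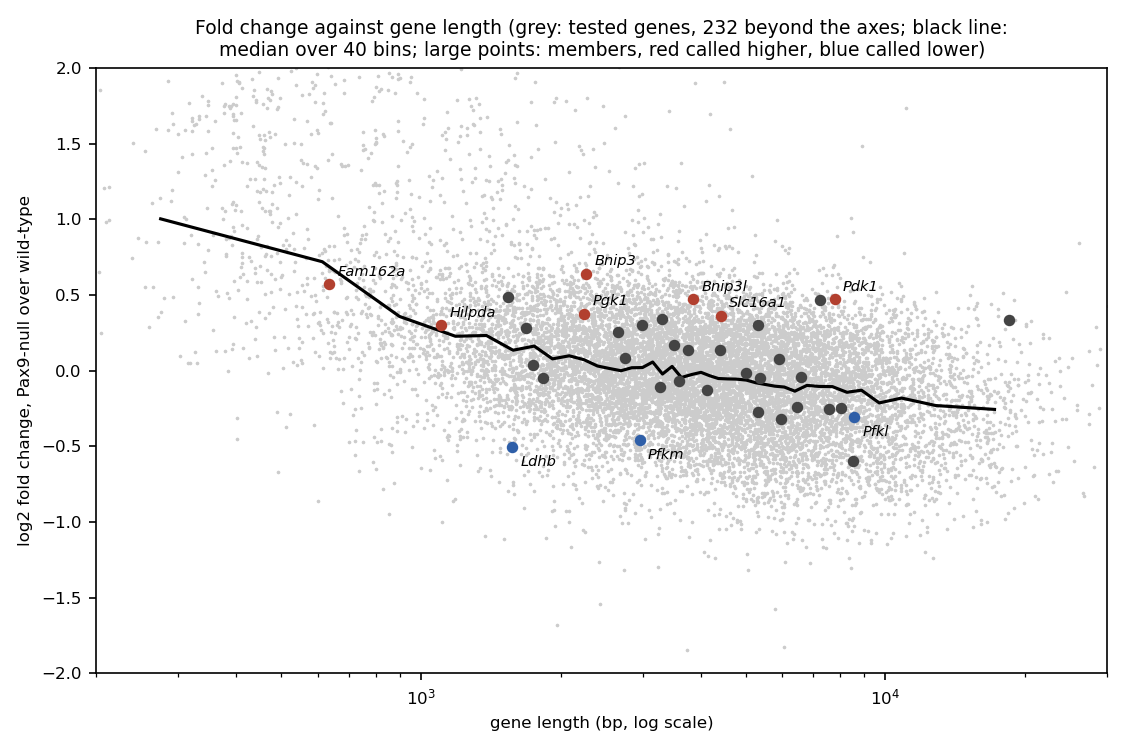
Log2 fold change, *Pax9*-null over wild-type, against gene length in bp (log scale) for 13524 tested genes with a length (grey, 232 of them beyond the axes), with the median over 40 bins of genes ordered by length as a black line. *Fam162a* is drawn at 635 bp. Members are large points, red where called higher and blue where called lower. *Fam162a* and *Hilpda* lie on or beside the line, whereas *Bnip3*, *Bnip3l* and *Pdk1* lie above it.

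Other genes of the same pathways, from lists of related function, gave 20 calls among 107 tested, 10 higher and 10 lower. These shares, 9.35% each, stood beside 14.7% and 12% of all tested genes. None of 24 further glycolytic and hexose genes was called by limma, 1 had an unadjusted *P* under 0.05, and their median log2 fold change was 0.00. Without the length trend 1 of the 24 was called higher, beside 15.8% of all tested genes. Without both trends 2 were called higher, beside 2.03%. Of 24 genes of pyruvate oxidation and the citrate cycle 1 was higher, the mitochondrial pyruvate carrier subunit *Mpc2* (0.68, limma adjusted *P*=0.0485), and 2 were lower, among them the citrate cycle enzyme *Ogdh* (−0.47, 0.0744). *Mpc2* stood at 6.91, 4.71 and 6.44 RPKM in *Pax9*-null and 3.30, 4.04 and 3.82 RPKM in wild-type replicates 1 to 3. In the pentose phosphate pathway, which diverts glucose to NADPH and ribose, the entry enzyme *G6pdx* was lower (−0.49, limma adjusted *P*=0.0433) and the epimerase *Rpe* higher (0.45, 0.0428) among 7 genes. With both trends removed neither this list nor that of pyruvate oxidation held a call, beside 2.03% higher and 0.679% lower of all tested genes.

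Of 18 further HIF regulators 3 were higher (16.7%, beside 14.7% of all tested genes) and 4 lower (22.2%, beside 12%). Those that rose were *Tceb1*, the elongin that carries Vhl in its ligase (0.54, limma adjusted *P*=0.0391), *Cited2*, which competes with HIF for its coactivators (0.34, 0.0804), and the ligase component *Rnf7* (0.40, 0.0848). Those that fell included the endoplasmic reticulum lectin *Os9* (−0.63, 0.0307), *Arnt2*, an alternative partner of HIF alpha (−0.59, 0.0473), and the coactivator *Crebbp* (−0.66, 0.08). *Arnt2* had 4.59, 5.07 and 5.42 RPKM in *Pax9*-null and 7.93, 6.28 and 8.59 RPKM in wild-type replicates 1 to 3, without overlap. Of the 18 regulators 3 were higher and 5 lower without the length trend, beside 15.8% and 11.5% of all tested genes. With both trends removed 0 of the 18 were called, when 2.03% of all tested genes were called higher and 0.679% lower.

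Among 34 other genes reported as HIF-induced 5 were higher (14.7%) and 3 lower (8.82%), with a median of 0.18. The share called higher was that of all tested genes, 14.7%, and the share called lower was below their 12%. Without the length trend the median was 0.07, with 7 higher and 5 lower, beside 15.8% and 11.5% of all tested genes. Without the GC trend as well the median was 0.095 and 0 were called, beside 2.03% higher and 0.679% lower of all tested genes. *Tfrc*, the transferrin receptor of iron uptake, had the lowest adjusted *P*, with 97.5, 88.4 and 90.0 RPKM in *Pax9*-null and 64.2, 70.0 and 62.1 RPKM in wild-type replicates 1 to 3 (0.49, limma adjusted *P*=0.0264). *Prelid2* (0.54, 0.0393) and the mitochondrial *Higd1a* (0.39, 0.0774) were also called higher. Glycogen synthase *Gys1* (−0.54, 0.0432), the histone demethylase *Kdm4b* (−0.51, 0.0459) and the matrix cross-linking enzyme *Loxl2* (−0.59, 0.0623) were called lower. When either *Pax9*-null replicate 1 or replicate 3 was left out, 0 of these 107 genes were called, when 2.22% and 1.29% of all tested genes were, and 18 and 17 of the 107 had an unadjusted *P* under 0.05.

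Many glycolytic genes have processed copies in the genome, and reads that fit several places were dropped by the authors. Stretches of 50 bases shared with other genes made up 47.2% of *Bnip3*, 36.2% of *Pgam1*, 26.0% of *Eno1*, 25.8% of *Pkm*, 25.1% of *Gapdh* and 20.99% of *Ldhb*. Any other annotated gene counted here, overlapping genes included, and the study's reads were longer than these stretches. The shares therefore do not measure the reads dropped. Levels of these genes, and with them their rank by RPKM, are uncertain by an amount that was not tested. *Pdk1*, *Slc16a1*, *Slc16a3*, *Hilpda*, *Vhl* and *Egln3* shared none. The sparsest members rested on few reads, with 44 to 93 per library for *Ankrd37* and 48 to 84 for *Aldoc*, whereas *Bnip3* had 724 to 1155 and *Ldha* 14040 to 19060.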

How the data were processed

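The study sequenced RNA of 3 *Pax9*-null and 3 wild-type E9.5 pharyngeal regions. Per the submitters' processing notes, reads were trimmed with Trimmomatic 0.32, aligned with STAR 2.5.1a to GRCm38 and counted with featureCounts 1.5.1, and the authors kept uniquely aligned, non-redundant reads and sub-sampled libraries towards the smallest. The values deposited by the authors are log2 RPKM, one per gene and library. Their steps showed whole reads after a prior count of 0.5 for 82.7% of values (tolerance 0.05 read), with effective library sizes of 11509880 to 12692302. Here limma 3.58.1 in R 4.3.3, letting the variance depend on expression level, compared genotypes over 13547 genes (mean RPKM of 0.5 or more), two-sided, with Benjamini-Hochberg adjustment and a threshold of 0.1. Levels in RPKM are the deposited values taken out of the log, and fold changes are differences of the deposited log2 values. Gene lengths and GC content came from GENCODE M21, except that 2831 genes, 10 members among them, took the nearest length at which their values gave whole reads. M21 lengths throughout were an alternative chosen after seeing the data. The 500 tested genes nearest in length gave the like-length medians. Loess curves with a span of 0.3 removed trends. The test was tried on simulated data, with no result of that trial given here. Named genes were the called members, the most abundant member of each role, up to 3 called genes per pathway list and direction, and *Pax9*; other members were given as values. Values of 2 genes that were called are not reported here. Members and lists were chosen with earlier results of these data known. The alternatives tried were other pseudocounts, filters, scalings, trends, weights, thresholds, a replicate block and leaving out each library.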

Additional observations from a re-analysis of the deposited data

How the results depend on the processing

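Of the alternatives that kept all libraries, a threshold of 0.05 left 1335 of the 3611 calls over all genes, 4 members higher, 0 lower and 10 of the 20 other pathway genes. With the length and GC trends removed 367 genes were called over all genes, with 2 members higher, 0 lower and 2 other pathway genes. Of these members *Slc16a3* was a new call. Both pathway genes were new calls too, from the further glycolytic and hexose genes, and no earlier pathway call was kept. The median log2 fold change of the members was 0.18 in place of 0.09. Quantile normalization gave 4 members higher and 9 lower and turned the median to −0.10. Without a variance trend 5 members were higher, 1 lower and 13 other pathway genes called, beside 10.7% and 10.1% of all genes higher and lower. Leaving out 1 library gave 175 to 3578 genes called, 1 to 9 members higher, 0 to 3 lower and 0 to 19 other pathway genes. With M21 lengths, an alternative chosen after seeing the data, 294 genes were called with both trends removed. Of the members 2 were higher, again *Pdk1* and *Slc16a3*, and 0 lower, with a median of 0.172. In this fit 1 other pathway gene was called. Of the called members, signs turned for *Fam162a* without the length trend (−0.024, and −0.041 with GC), *Hilpda* with M21 lengths (−0.007, and −0.005 with GC) and *Pfkl* without both trends (0.223, or 0.172 with M21 lengths). The sign also turned in at least 1 setting for 18 members that were not called, among them *Ldha* (−0.051) and *Tpi1* (−0.243, then called lower) of 6 under quantile normalization and *Eno1* and *Pkm* of 9 without both trends. The causes were not tested beyond the construction of each alternative. Both pseudocounts, the absence of a filter, the higher filter, median centring and library weights kept all 10 calls.

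The replicate numbers are names of separate embryos: deviations of same-numbered libraries correlated by −0.02, −0.17 and 0.26, so they were not taken as pairs. With the replicate number as a block 1377 genes, 5 members higher, 1 lower and 11 other pathway genes were called.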
